A study of Homo sapiens with 17 samples.

Results

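Transcripts of the kidney cancer line 786-O, which derives from a clear cell carcinoma and has no working VHL, were compared between 2 CRISPR experiments: guide RNAs against USP37 and guide RNAs against HIF2a (gene symbol EPAS1). The quantity described is the interaction, that is the USP37 effect (mean of USP37 sg3 and USP37 sg9 minus the scrambled control of that experiment) minus the HIF2a effect (mean of HIF2a sg4 and HIF2a sg6 minus its own scrambled control). It uses 17 of the 17 libraries in the series. USP37 sg3 and USP37 sg9 had 3 libraries each and the USP37 scrambled control had 2. HIF2a sg4, HIF2a sg6 and the HIF2a scrambled control had 3 libraries each. All groups, controls included, carried Cas9 with a guide from a lentiviral vector and were kept under antibiotic selection, and all lack VHL as a property of the line. Whether the libraries of a group are separate cultures is not stated, and the p-values cover only the spread between libraries, which may be technical. The study's title concerns removal of ubiquitin from HIF2a by USP37, and the comparison asks which functions of the HIF2a loss recur when USP37 is targeted.

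HIF2a is a transcription factor subunit that oxygen-dependent hydroxylation marks for capture by VHL and for destruction by the proteasome. Without VHL it accumulates, pairs with ARNT and drives genes of angiogenesis, glucose uptake, growth and lipid storage, and clear cell renal carcinoma depends on this output. USP37 is a deubiquitinase, an enzyme that takes ubiquitin off other proteins and is known for cell cycle substrates.

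The values are variance-stabilised and batch-corrected by the authors on a log2 scale, so a difference of 1 is a 2-fold change for well expressed genes, and less than the true change near the floor of 5.14. A gene was called where the limma adjusted p (Benjamini-Hochberg over all 12484 genes tested) was under 0.05, and "rose" and "fell" below refer only to called effects of guides against their own control. USP37 itself had values of 8.04 to 8.43 (median 8.26) in the 6 USP37 guide libraries, against 9.33 and 9.15 in the USP37 controls. It had 8.13 to 8.69 (median 8.57) in the 6 HIF2a guide libraries, against 9.06, 9.13 and 8.68 in the HIF2a controls. USP37 fell by 1.00 ± 0.14 (SE) with its own guides and by 0.44 ± 0.12 with the HIF2a guides, and the interaction of -0.56 ± 0.19 had a limma adjusted p of 0.0222, with controls that differed by 0.28 (not called). That interaction was not called without the third HIF2a control library (-0.43, limma adjusted p = 0.0869), and was -0.47 without the USP37 control library numbered 2. By single guides, it was not called where sg3 was paired with sg4 (-0.49, limma adjusted p = 0.0851) or sg6 (-0.43, limma adjusted p = 0.124). The fall of USP37 with HIF2a guides was not called without the first or the second HIF2a control (-0.39 and -0.36, limma adjusted p = 0.0625 and 0.0657), or without 3 HIF2a libraries that stand apart from their groups, sg6 libraries 2 and 3 and control library 2 (-0.26, limma adjusted p = 0.156). EPAS1 had 11.20 to 11.64 (median 11.39) with USP37 guides, against 12.16 and 12.11 in the USP37 controls. It had 9.43 to 10.48 (median 9.91) with HIF2a guides, against 11.96, 12.01 and 11.76 in the HIF2a controls. EPAS1 therefore fell in both experiments, by 0.72 ± 0.12 and by 1.97 ± 0.10, with an interaction of 1.26 ± 0.16 (limma adjusted p = 2.66e-06) and controls that differed by 0.22 (not called). Of the cell type markers, 6 of 6 for the 786-O line, 2 of 6 for 293T packaging cells (NEFL and SOX2) and 0 of 8 for leukocytes were expressed above the filter. The 293T markers LIN28B, NEFM, GAL and INA were below it. Summed over the list, the 293T markers ran from 37.61 to 38.77 in USP37 guide libraries, against 38.91 to 39.40 in the USP37 controls, and from 39.40 to 40.25 in HIF2a guide libraries, against 39.45 to 40 in the HIF2a controls. The summed 786-O markers ran from 73.37 to 74.55 in USP37 guide libraries, against 72.77 to 73.13 in the USP37 controls, and from 70.77 to 71.94 in HIF2a guide libraries, against 72.94 to 74.41 in the HIF2a controls. That list holds EPAS1. Without it the sums ran from 62.08 to 63.11 in USP37 guide libraries, against 60.6 to 61.02 in the USP37 controls, and from 61.16 to 61.83 in HIF2a guide libraries, against 60.97 to 62.39 in the HIF2a controls. The summed leukocyte markers, all below the filter, ran from 41.02 to 41.62 in USP37 guide libraries, against 41.7 to 45.45 in the USP37 controls, and from 40.8 to 42.12 in HIF2a guide libraries, against 41.04 to 43.4 in the HIF2a controls. The part of these markers in the results below was not tested.

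The controls of the experiments differed from each other. The USP37 controls were higher than the HIF2a controls at 2505 genes (20.1%) and lower at 2546 (20.4%), or at 40.5% in either direction, and experiment and control library cannot be told apart there. The USP37 guide libraries were higher than the HIF2a guide libraries at 36.6% of tested genes and lower at 35.5%, or 72% in either direction. For each named gene the difference between the controls (USP37 control minus HIF2a control) is given, and where it was called the difference between the guide libraries (USP37 guides minus HIF2a guides), which uses no control, is given beside it. The interaction equals the guide difference minus the control difference. In these bulk samples, fewer cells of a type and less RNA per cell cannot be told apart.

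The USP37 guides raised 2795 genes (22.4%) and lowered 2730 (21.9%), 44.3% together, and the HIF2a guides raised 2006 (16.1%) and lowered 1813 (14.5%), 30.6% together. Taken singly against the same control, sg3 raised 16.8% of tested genes and lowered 18.4%, sg9 raised 24.6% and lowered 23.2%, sg4 raised 13.2% and lowered 12.1%, and sg6 raised 15.2% and lowered 13.8%. Between the guides of a target, sg9 was higher than sg3 at 16.6% of tested genes and lower at 14.2%, and sg6 was higher than sg4 at 4.86% and lower at 4.36%. Counts for single guides below are read against these shares. The interaction was called higher at 2448 genes (19.6%) and lower at 2377 (19%), 38.6% together, and its size was at least 1 log2 unit at 253 higher (2.03%) and 543 lower (4.35%). The effects were called in the same direction at 1052 genes (8.43%). Of these, 362 rose (2.9%) and 437 fell (3.5%) in both with no called difference in size, and 94 rose (0.753%) and 159 fell (1.27%) with a called difference in size. The effects were called in opposite directions at 851 genes (6.82%), of which 308 rose with USP37 guides and fell with HIF2a guides (2.47%) and 543 did the reverse (4.35%). A called interaction with an effect in the USP37 experiment alone was found for 1398 genes that rose (11.2%) and 980 that fell (7.85%). The same pattern in the HIF2a experiment alone held for 614 genes that rose (4.92%) and 468 that fell (3.75%). A further 2078 genes (16.6%) had 1 called effect but no called interaction, so that a difference between the experiments was not shown for them. Among genes with opposite effects the controls differed at 153 of the 308 and at 325 of the 543, against the 40.5% of all tested genes. Single control libraries moved some of these counts. The 362 became 223 without the HIF2a control library numbered 1, and the 1398 became 901 without the USP37 control library numbered 2. The 308 became 190 and 201 without the USP37 control libraries numbered 2 and 3, and 199 and 197 without the HIF2a control libraries numbered 1 and 3. The 94 became 55 without HIF2a control 1, and 52 and 41 without USP37 controls 2 and 3, and the 159 became 95 and 93 without USP37 controls 2 and 3. The class was the same with the replicate number in the fit for 88% of genes.

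**Figure D1:**
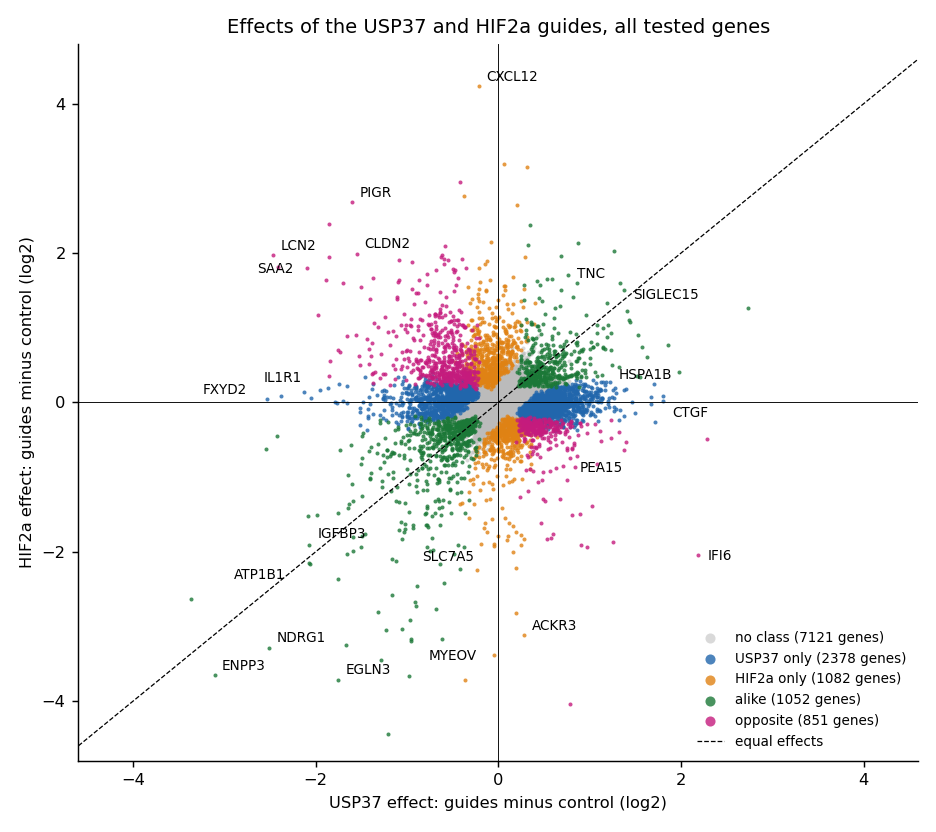
Effect of the USP37 guides (x axis) and of the HIF2a guides (y axis), each as guides minus their own scrambled control in log2 units, for the 12484 tested genes; colours mark the classes and the dashed line marks equal effects. ENPP3 at -3.11 and -3.66 and IGFBP3 at -2.08 and -1.91 lie near the line, SAA2 at -2.09 and 1.80 and IFI6 at 2.19 and -2.04 lie in the quadrants of opposite sign, and CXCL12 at -0.21 and 4.23 lies along the y axis.

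The function that the experiments shared was the HIF2a target program itself. Of 28 tested HIF2A and clear cell carcinoma targets, 24 fell and 1 rose with USP37 guides (median -0.79, against 0.00599 over all tested genes), and 21 fell and 2 rose with HIF2a guides (median -1.49, against -0.00454 over all tested genes). Over all tested genes 21.9% fell and 22.4% rose with USP37 guides, and 14.5% fell and 16.1% rose with HIF2a guides. Both effects fell at 20 of the 28, against 4.77% of all tested genes. The effect differed in size at 15 of those 20. With USP37 guides taken singly, 22 members fell with sg3 and 22 with sg9, against 18.4% and 23.2% of all tested genes. The list was drawn from genes known to depend on HIF2a, and earlier results of these data were known.

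Within that program ENPP3, an ectonucleotidase of clear cell carcinoma, fell in both experiments with no called difference in size. ENPP3 had values of 5.96 to 7.01 (median 6.18) in USP37 guide libraries, against 9.40 and 9.42 in USP37 controls. It had 5.76 to 6.63 (median 6.13) in HIF2a guide libraries, against 9.97, 9.81 and 9.61 in HIF2a controls. Guides and controls did not overlap in either experiment. ENPP3 fell by 3.11 ± 0.20 with USP37 guides and fell by 3.66 ± 0.18. The interaction was 0.55 with a 95% interval from -0.01 to 1.11 (limma adjusted p = 0.114), and the controls differed by -0.39 ± 0.23 (not called). The guide libraries of both experiments lie near the floor of 5.14, where differences are understated. IGFBP3, a secreted binding protein of insulin-like growth factors, had 13.45 to 14.34 (median 13.82) with USP37 guides, against 15.89 and 15.91 in the controls, and 13.11 to 13.57 (median 13.40) with HIF2a guides, against 15.42, 15.13 and 15.27. IGFBP3 fell by 2.08 ± 0.14 and by 1.91 ± 0.12. Its interaction was -0.17 (95% interval -0.56 to 0.23), its controls differed by 0.63 (called), and its guide libraries differed by 0.46 (called). DDIT4, an inhibitor of mTORC1 induced by stress, CA12, a membrane carbonic anhydrase, and EDN1, the vasoconstrictor endothelin, also fell in both without a called difference. Their USP37 effects were -1.99, -1.65 and -1.76 and their HIF2a effects -1.51, -1.42 and -1.48, with controls that differed by 0.80, 0.77 and 0.66 and guide libraries by 0.33, 0.54 and 0.38 (all called).

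The promoter of IGFBP3 is shown because its fall was of like size in both experiments. It is the 250 bases before the start site from RefSeq (GRCh38.p14, chr7:45921273-45921522, minus strand, 5′ to 3′), and capitals mark the HIF core letters ACGTG or GCGTG on either strand, which the E-box CACGTG would also match. There were 3 matches, whose first bases lie 209, 167 and 55 bases before the start site.
IGFBP3: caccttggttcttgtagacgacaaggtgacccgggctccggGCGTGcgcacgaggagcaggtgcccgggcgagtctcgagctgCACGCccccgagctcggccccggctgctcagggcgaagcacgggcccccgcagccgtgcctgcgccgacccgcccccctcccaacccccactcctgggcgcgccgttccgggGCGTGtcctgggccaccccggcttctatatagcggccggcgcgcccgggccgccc
Such a short motif is common: 47.4% of 27305 genes with a promoter in the table hold at least 1 match in the same window, and 14 of the 18 HIF2A targets that matched the table do. A match is a description of letters, not of binding.

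The interaction was higher at 14 of the 28 targets and lower at 4, against 19.6% and 19% of all tested genes. The higher ones were led by genes that fell further with HIF2a guides. EGLN3, an oxygen-sensing prolyl hydroxylase that is itself a HIF target, had 8.57 to 9.41 (median 9.001) with USP37 guides, against 10.76 and 10.78 in the controls. It had 6.16 to 7.49 (median 6.74) with HIF2a guides, against 10.63, 10.57 and 10.29. EGLN3 fell by 1.75 ± 0.19 and by 3.71 ± 0.17, with an interaction of 1.96 ± 0.26 (limma adjusted p = 4.74e-06) and a control difference of 0.27 (not called). TGFA, a ligand of the EGF receptor and a growth factor of this cancer, fell by 0.60 ± 0.11 and fell by 2.42 ± 0.09, with controls that differed by 0.06 (not called). PTHLH, the parathyroid hormone-like hormone, fell by 0.97 and by 2.92, with controls that differed by -0.86 (called) and guide libraries that differed by 1.10 (called). SLC2A1, the glucose transporter GLUT1, fell by 0.79 and by 1.93, with controls that differed by -0.08 (not called). CCND1, which encodes cyclin D1 and is a direct HIF2a target in kidney cancer, fell by 0.79 and by 1.64, with controls that differed by -0.61 (called) and guide libraries that differed by 0.24 (called). VEGFA, the angiogenic growth factor, fell by 0.70 and by 1.32, with an interaction of 0.62 (limma adjusted p = 0.0117) and controls that differed by -0.13 (not called). NDRG1, a stress-response gene, fell by 2.51 and fell by 3.28, and its interaction of 0.77 had a limma adjusted p of 0.0205 with controls that differed by 0.75 (called) and guide libraries that differed by 1.52 (called). The VEGFA interaction was not called without the USP37 control library numbered 3 (0.56, limma adjusted p = 0.0703), nor was the NDRG1 interaction without either USP37 control (0.80 and 0.74, limma adjusted p = 0.0614 and 0.0788) or without the first HIF2a control (0.66, limma adjusted p = 0.0657). By single guides, the VEGFA interaction was not called where sg4 was paired with sg3 (0.35, limma adjusted p = 0.225) or sg9 (0.4999, limma adjusted p = 0.0662). The NDRG1 interaction was not called where sg6 was paired with sg3 (0.26, limma adjusted p = 0.522) or sg9 (0.43, limma adjusted p = 0.24). CA9 was below the expression filter and was not tested.

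Members of the HIF2A list that departed from it were few. LOX, the collagen cross-linking lysyl oxidase, fell by 0.47 with USP37 guides and rose by 0.70 with HIF2a guides, with controls that differed by -0.08 (not called). TMEM45A had a USP37 effect of 0.01 (not called) and fell by 0.43 with HIF2a guides, with controls that differed by -0.23 (not called), and that fall was not called with the median of each chromosome subtracted in each library (-0.19, limma adjusted p = 0.193). STC2, a secreted stanniocalcin, rose by 0.43 and by 0.55, with controls that differed by 0.14 (not called), and its rise with USP37 guides was not called when any of 6 single libraries was left out (0.37 to 0.50, limma adjusted p = 0.0552 to 0.228). PLIN2, the coat protein of lipid droplets, had 11.10 to 11.70 (median 11.28) with USP37 guides, against 13.004 and 13.001 in USP37 controls. It had 10.94 to 11.46 (median 11.05) with HIF2a guides, against 11.26, 11.11 and 10.92 in HIF2a controls. Only the USP37 controls stood high. The USP37 effect was -1.66 ± 0.14, the HIF2a effect -0.00 ± 0.12 (not called), the controls differed by 1.91 ± 0.15 and the guide libraries by 0.25 (called).

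Several genes outside that list moved alike. ATP1B1, the beta subunit of the sodium pump, had 10.71 to 11.72 (median 11.10) with USP37 guides, against 13.13 and 13.19 in the controls, and 10.47 to 10.80 (median 10.53) with HIF2a guides, against 12.83, 12.81 and 12.63. It fell by 2.07 ± 0.15 and by 2.17 ± 0.13. The interaction was 0.10 (95% interval -0.30 to 0.50), with controls that differed by 0.40 (not called). CFI, the complement protease factor I, fell by 2.07 and by 2.16, with an interaction of 0.08 (95% interval -0.37 to 0.53) and controls that differed by -0.16 (not called). SEMA5B, a transmembrane semaphorin, fell by 3.37 and by 2.64, with an interaction of -0.73 (95% interval -1.37 to -0.09, limma adjusted p = 0.0651) and controls that differed by -0.24 (not called).

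Genes that rose in both experiments included matrix and growth factor feedback genes. TNC, the matrix glycoprotein tenascin C, had 11.79 to 12.80 (median 12.31) with USP37 guides, against 10.99 and 10.93 in the controls, and 11.75 to 12.81 (median 12.23) with HIF2a guides, against 10.47, 10.91 and 10.67. TNC rose by 1.33 ± 0.12 and by 1.60 ± 0.11, with controls that differed by 0.28 (not called). EMP1, an epithelial membrane protein, rose by 1.41 and by 1.22, with controls that differed by 0.39 (not called). OXTR, the oxytocin receptor, rose by 1.20 and by 1.03, with controls that differed by -0.22 (not called). SIGLEC15, a sialic acid receptor, rose by 1.37 ± 0.11 and by 1.503 ± 0.09 although its controls differed by 1.38 ± 0.12 (called) and its guide libraries by 1.25 (called). The 95% intervals of the interaction were -0.61 to 0.08 for TNC, -0.22 to 0.58 for EMP1, -0.22 to 0.56 for OXTR and -0.42 to 0.16 for SIGLEC15, so differences of those sizes are not shown to be absent. DUSP5 and DUSP6, phosphatases that restrain ERK, rose by 1.15 and 1.03 with USP37 guides and by 0.99 and 0.75 with HIF2a guides. Their controls differed by 0.59 (called, guide libraries 0.75, called) and by 0.01 (not called). CD44, the hyaluronan receptor, rose by 0.96 and by 1.17, with controls that differed by -0.10 (not called).

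**Figure D2:**
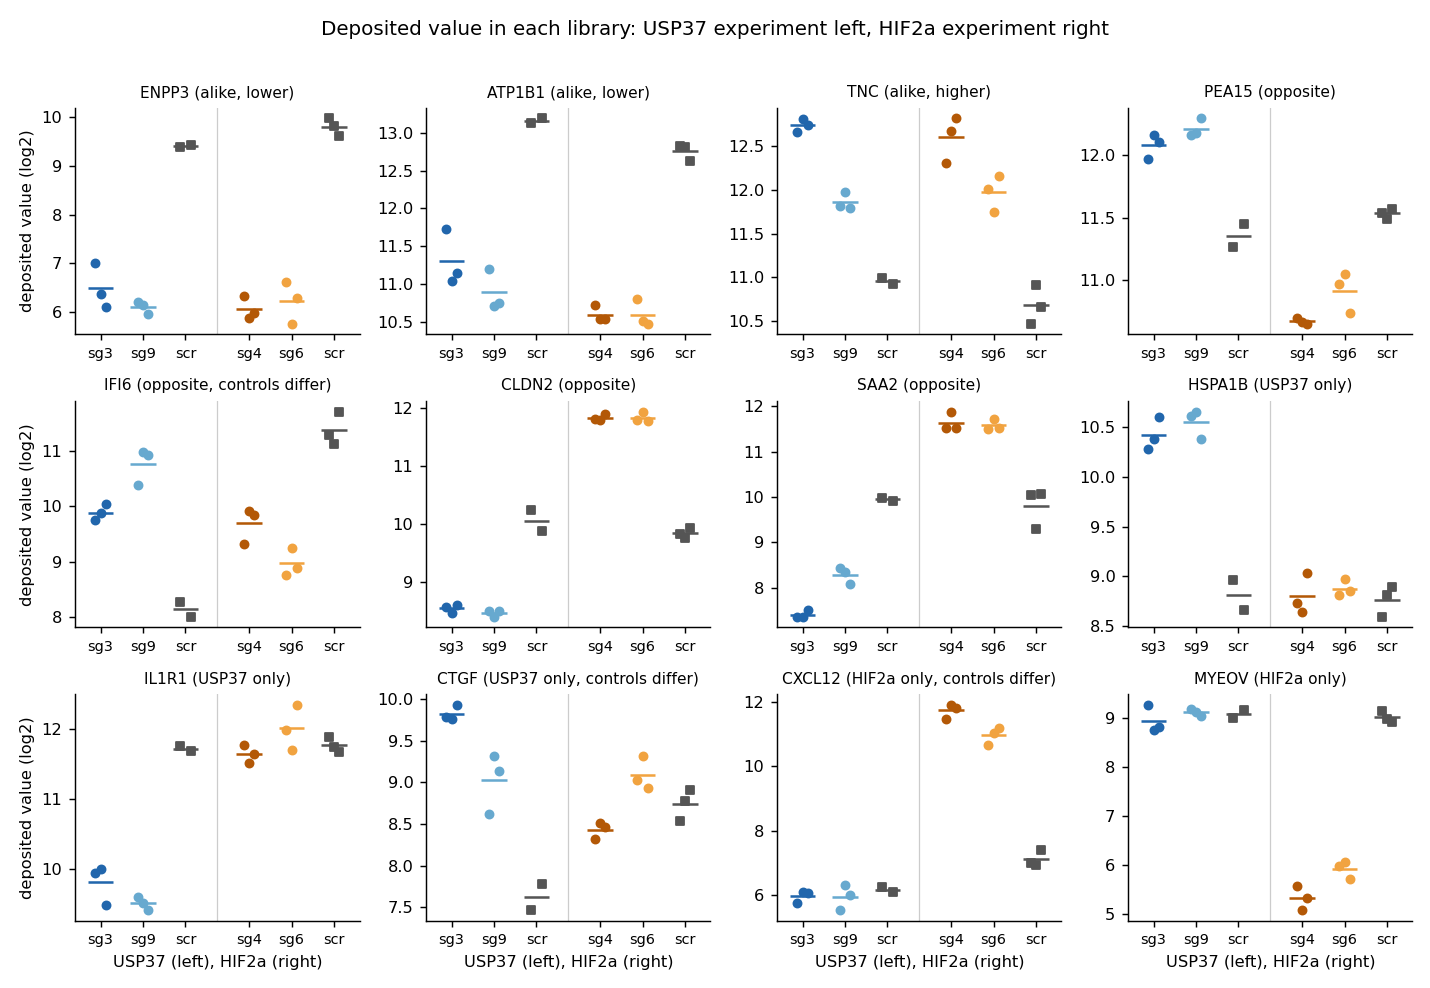
Deposited value (log2) of 12 genes in each library, with the USP37 experiment left and the HIF2a experiment right in each panel; circles are guide libraries, squares are scrambled controls and bars are group means. ENPP3, ATP1B1 and TNC move the same way in both experiments, CLDN2 and SAA2 move apart from controls at nearly the same level, and the controls of IFI6, CTGF and CXCL12 stand apart.

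The clearest opposite response was that of complement and acute phase genes, secreted or surface proteins of innate defence that kidney epithelium can express. Of 17 tested members, 16 fell and 0 rose with USP37 guides (median -1.4), against 21.9% and 22.4% of all tested genes. With HIF2a guides 10 rose and 5 fell (median 0.62), against 16.1% and 14.5%. The interaction was lower at 15 and higher at 0, against 19% and 19.6%. Among the members 9 fell with USP37 guides and rose with HIF2a guides, against 4.35% of all tested genes. The USP37 controls were higher than the HIF2a controls at 10 members and lower at 2 (median 0.53), against 20.1% and 20.4%. The guide libraries were higher at 2 and lower at 11 (median -1.03), against 36.6% and 35.5%. The direction was the same with each USP37 guide, with 16 members lower with sg3 and 15 with sg9, and with each HIF2a guide, with 9 higher with sg4 and 10 with sg6. LCN2 and C3 are also in the NF-kB list, and CP is also in the HIF2A target list.

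SAA2, an acute phase serum amyloid, had 7.36 to 8.44 (median 7.80) with USP37 guides, against 9.99 and 9.91 in USP37 controls. It had 11.49 to 11.88 (median 11.51) with HIF2a guides, against 10.04, 9.30 and 10.07 in HIF2a controls. The controls of the experiments overlapped and the guide libraries moved to either side of them. SAA2 fell by 2.09 ± 0.16 and rose by 1.80 ± 0.14, with an interaction of -3.89 ± 0.21 (limma adjusted p = 1.12e-11) and a control difference of 0.14 (not called). SAA1, its near-identical neighbour, fell by 1.70 and rose by 1.60, with controls that differed by 0.64 and guide libraries by -2.66 (both called). Reads may be shared between SAA1 and SAA2, so the split between them is uncertain. C3, the central complement protein, had 12.27 to 13.06 (median 12.64) with USP37 guides, against 14.53 and 14.46 in the controls, and 14.93 to 15.43 (median 15.32) with HIF2a guides, against 13.27, 13.35 and 13.27. Its effects were -1.85 ± 0.14 and 1.94 ± 0.12, its controls differed by 1.20 (called) and its guide libraries by -2.60 (called). LCN2, the siderophore-binding lipocalin, fell by 2.47 and rose by 1.97, and its controls differed by 1.98 ± 0.19 (called) while its guide libraries differed by -2.46 (called). PIGR, the receptor that carries polymeric immunoglobulin across epithelia, fell by 1.60 and rose by 2.68, with controls that differed by 1.21 and guide libraries that differed by -3.07 (both called). SERPINA1, the elastase inhibitor alpha-1 antitrypsin, fell by 1.398 and rose by 0.62, with controls that differed by 0.99 and guide libraries by -1.03 (both called). C1R, a protease of the first complement component, fell by 0.70 and rose by 1.08, with controls that differed by 0.06 (not called). Its partner protease C1S fell by 0.80 and rose by 0.53, with controls that differed by -0.53 and guide libraries by -1.86 (both called). The HIF2a effects of C1S were 0.20 with sg4 (not called) and 0.86 with sg6 (called). The fall of C1R was not called without the USP37 control library numbered 3 (-0.56, limma adjusted p = 0.0789).

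The complement list was not uniform. CFB, the protease subunit of the alternative pathway, fell by 1.13 and by 0.55, with controls that differed by -0.73 and guide libraries by -1.31 (both called). Its HIF2a effects were 0.06 with sg4 (not called) and -1.15 with sg6 (called). CP, the copper oxidase ceruloplasmin, fell by 2.09 and by 1.52, with controls that differed by 0.42 (not called). CD55, which protects cells from complement, fell by 0.36 with USP37 guides and had a HIF2a effect of 0.15 (not called), with controls that differed by 0.90 and guide libraries by 0.39 (both called). The fall of CD55 was not called without either USP37 control library (-0.35 and -0.36, limma adjusted p = 0.0644 and 0.0557). CFD, the protease factor D, had a USP37 effect of -0.11 (not called) and rose by 0.65 with HIF2a guides, with controls that differed by 0.06 (not called).

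Other genes that fell with USP37 guides and rose with HIF2a guides came from epithelial, matrix, detoxifying and inflammatory functions. CLDN2, a pore-forming claudin of the proximal tubule, had 8.39 to 8.604 (median 8.49) with USP37 guides, against 10.23 and 9.88 in the controls, and 11.77 to 11.93 (median 11.79) with HIF2a guides, against 9.82, 9.76 and 9.93. Neither set of guide libraries overlapped its controls. CLDN2 fell by 1.55 ± 0.09 and rose by 1.99 ± 0.08, with an interaction of -3.54 ± 0.12 (limma adjusted p = 4.25e-14) and controls that differed by 0.22 (not called). ITIH5, a hyaluronan-binding matrix protein, had 6.94 to 7.64 (median 7.25) with USP37 guides, against 9.35 and 9.18, and 10.21 to 11.51 (median 10.75) with HIF2a guides, against 9.53, 9.62 and 9.57. ITIH5 fell by 1.97 and rose by 1.17, with controls that differed by -0.31 (not called). Of 25 NRF2 targets, 6 fell with USP37 guides and rose with HIF2a guides, against the same 4.35% of all genes. Among them AKR1B10, an aldo-keto reductase, fell by 1.89 and rose by 1.64, with controls that differed by 0.58 and guide libraries by -2.95 (both called). ABCC3, an organic anion exporter, fell by 0.89 and rose by 0.98, with controls that differed by -0.10 (not called). AKR1C1 and AKR1C3 fell by 0.56 and 1.66 and rose by 1.91 and 0.88, with controls that differed by 0.74 and 1.05 and guide libraries by -1.73 and -1.496 (all called), and reads may be shared between these near-identical enzymes. The fall of AKR1C1 was not called without the third sg3 library, the first sg9 library or the USP37 control library numbered 3 (-0.34 to -0.46, limma adjusted p = 0.0598 to 0.355). The NRF2 list as a whole had a median of -0.06 with USP37 guides and 0.07 with HIF2a guides, and the HIF2a guides were unlike, with 5 higher and 11 lower with sg4 and 12 higher and 2 lower with sg6.

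NF-kB and inflammatory genes leaned the same way. Of 26 tested, 12 fell and 6 rose with USP37 guides, and 14 rose and 5 fell with HIF2a guides. The interaction was lower at 13 and higher at 5, against 19% and 19.6% of all tested genes. Of all tested genes 21.9% fell and 22.4% rose with USP37 guides, and 16.1% rose and 14.5% fell with HIF2a guides. VCAM1, a leukocyte adhesion molecule, fell by 0.86 and rose by 1.12, with controls that differed by -0.72 and guide libraries by -2.70 (both called). SOD2, the mitochondrial superoxide dismutase, fell by 0.86 and rose by 0.83, with controls that differed by 0.53 and guide libraries by -1.17 (both called). BIRC3, an inhibitor of apoptosis induced by NF-kB, had 10.03 to 10.48 (median 10.29) with USP37 guides, against 12.16 and 12.17, and 11.18 to 11.90 (median 11.77) with HIF2a guides, against 11.64, 11.49 and 11.27. BIRC3 fell by 1.87 with USP37 guides and had a HIF2a effect of 0.19 (not called), with controls that differed by 0.70 and guide libraries by -1.36 (both called). The neutrophil chemokines CXCL1 and CXCL2 instead rose in both, by 1.17 and 0.43 with USP37 guides and by 0.72 and 0.41 with HIF2a guides, with controls that differed by -0.39 and 0.05 (not called). The HIF2a effects of CXCL1 were 1.345 with sg4 (called) and 0.09 with sg6 (not called). The HIF2a effects of CXCL2 were 0.91 with sg4 (called) and -0.08 with sg6 (not called). Its USP37 effect was not called without either USP37 control or the third sg3 library (0.33 to 0.54, limma adjusted p = 0.0537 to 0.246). Its HIF2a effect was not called without the first or second HIF2a control or the second sg4 library (0.36 to 0.44, limma adjusted p = 0.055 to 0.101). IL6, the inflammatory cytokine, rose by 1.52 and by 0.36, with controls that differed by -0.17 (not called). The HIF2a effects of IL6 were 0.69 with sg4 (called) and 0.03 with sg6 (not called). Its HIF2a effect was not called without the second sg4 library (0.29, limma adjusted p = 0.0576) or the second HIF2a control (0.26, limma adjusted p = 0.145). The HIF2a side of this list rested more on sg4, with 16 members higher and 1 lower, than on sg6, with 7 higher and 8 lower.

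The reverse pattern, higher with USP37 guides and lower with HIF2a guides, was frequent among type I interferon response genes. Of 30 tested members, 11 rose and 7 fell with USP37 guides (median 0.22), against 22.4% and 21.9% of all tested genes. With HIF2a guides 2 rose and 18 fell (median -0.38), against 16.1% and 14.5%. The interaction was higher at 14 and lower at 3, against 19.6% and 19%. Opposite effects of this kind were found at 8 members, against 2.47% of all tested genes. The USP37 controls were higher than the HIF2a controls at 1 member and lower at 11 (median -0.06), against 20.1% and 20.4%. The guide libraries were higher at 12 and lower at 7 (median 0.15), against 36.6% and 35.5%. IFI6, a mitochondrial protein induced by interferon, had 9.75 to 10.98 (median 10.21) with USP37 guides, against 8.28 and 8.00 in USP37 controls. It had 8.77 to 9.91 (median 9.29) with HIF2a guides, against 11.29, 11.12 and 11.71 in HIF2a controls. The guide libraries of the experiments overlapped, and the controls stood on either side of them. IFI6 rose by 2.19 ± 0.18 and fell by 2.04 ± 0.15, with an interaction of 4.23 ± 0.23 (limma adjusted p = 1.95e-11), of which -3.24 ± 0.20 was the control difference and 1.00 the guide difference (both called).

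The control difference was also called for RSAD2, an antiviral enzyme of the endoplasmic reticulum, which rose by 1.03 and fell by 1.39, with controls that differed by -1.32 and guide libraries by 1.09 (called). ISG15, a ubiquitin-like modifier, had 9.26 to 10.01 (median 9.56) with USP37 guides, against 8.44 and 8.54, and 8.48 to 8.65 (median 8.596) with HIF2a guides, against 9.28, 9.60 and 9.31. ISG15 rose by 1.08 and fell by 0.82, with controls that differed by -0.91 and guide libraries by 1.00 (both called). BST2, the virus tether tetherin, rose by 0.32 and fell by 0.73, with controls that differed by -1.23 (called) and guide libraries by -0.17 (not called), and OAS2, a sensor of double-stranded RNA, rose by 0.56 and fell by 0.61, with controls that differed by -1.25 (called) and guide libraries by -0.07 (not called). The RNA-binding IFIT3 and IFIT5 had smaller opposite effects with like controls: IFIT3 rose by 0.41 and fell by 0.32 (controls 0.05, not called) and IFIT5 rose by 0.39 and fell by 0.29 (controls -0.05, not called). The USP37 effects of BST2 were 0.15 with sg3 (not called) and 0.49 with sg9 (called). Its HIF2a effects were -0.15 with sg4 (not called) and -1.31 with sg6 (called). The rise of BST2 was not called when any of 9 single libraries was left out, either USP37 control among them (limma adjusted p = 0.0505 to 0.184), nor that of OAS2 without either USP37 control (0.57 and 0.56, limma adjusted p = 0.058 and 0.0586). The fall of IFIT5 was not called without the second HIF2a control (-0.25, limma adjusted p = 0.0636). With sg3 alone the rise of IFIT5 was not called (0.27, limma adjusted p = 0.0571). With sg4 alone the fall of IFIT3 was not called (-0.21, limma adjusted p = 0.0986).

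The promoter of IFI6 is shown because it had the largest interaction in the interferon list. It is the 250 bases before the start site from RefSeq (GRCh38.p14, chr1:27672193-27672442, minus strand, 5′ to 3′), with an interferon element, GAAA, any 2 bases and GAAA, on either strand in capitals. There were 3 matches, whose first bases lie 156, 115 and 93 bases before the start site.
IFI6: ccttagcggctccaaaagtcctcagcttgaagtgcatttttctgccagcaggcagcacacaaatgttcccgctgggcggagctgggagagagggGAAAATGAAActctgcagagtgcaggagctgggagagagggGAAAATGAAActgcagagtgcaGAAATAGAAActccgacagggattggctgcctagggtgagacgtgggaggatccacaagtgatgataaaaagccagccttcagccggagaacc
These letters occur in the same window of 3.71% of all 27305 genes in the table and of 16 of the 24 interferon list members that matched it.

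Genes outside the interferon list shared this direction with controls that did not differ. PEA15, an adaptor with a death effector domain that binds ERK, had 11.97 to 12.29 (median 12.16) with USP37 guides, against 11.26 and 11.45 in the controls. It had 10.65 to 11.05 (median 10.72) with HIF2a guides, against 11.54, 11.49 and 11.57. No guide library overlapped its controls. PEA15 rose by 0.79 ± 0.09 and fell by 0.74 ± 0.08, with an interaction of 1.53 ± 0.12 (limma adjusted p = 2.56e-09) and controls that differed by -0.18 (not called). ECM1, an extracellular matrix glycoprotein, rose by 0.75 and fell by 1.04, with controls that differed by -0.07 (not called). SCG5, a secretory granule chaperone, rose by 0.86 and fell by 0.72, with controls that differed by -0.27 (not called). SEMA7A, a membrane-anchored semaphorin, had 11.02 to 11.52 (median 11.33) with USP37 guides, against 8.99 and 9.09, and 8.16 to 9.32 (median 8.94) with HIF2a guides, against 9.30, 9.06 and 9.76. SEMA7A rose by 2.28 ± 0.17 and fell by 0.49 ± 0.14, with controls that differed by -0.33 (not called). The HIF2a effect of SEMA7A was not called without the third HIF2a control (-0.30, limma adjusted p = 0.147) or with sg4 alone (-0.19, limma adjusted p = 0.449). Without the USP37 control numbered 3 the USP37 effect of ECM1 was 0.45.

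Immediate early genes, the first transcripts after growth factor signals, were split. Of 28 tested, 14 rose and 3 fell with USP37 guides, against 22.4% and 21.9% of all tested genes. With HIF2a guides 11 rose and 7 fell, against 16.1% and 14.5%. In both experiments 6 rose, against 3.65% of all tested genes, and 5 rose with USP37 guides but fell with HIF2a guides, against 2.47%. Transcription factors stood among the opposite genes. EGR1 rose by 0.58 and fell by 1.82, with controls that differed by -0.83 and guide libraries by 1.57 (both called). FOSL1 rose by 1.23 and fell by 0.48 (controls -0.50, guides 1.21, both called), JUN rose by 0.82 and fell by 0.55 (controls -0.51, guides 0.86, both called) and MYC rose by 0.90 and fell by 0.28 (controls -0.43, guides 0.74, both called). The fall of MYC was not called without the third HIF2a control (-0.19, limma adjusted p = 0.124) or with sg6 alone (-0.20, limma adjusted p = 0.112). PHLDA1 rose in both, by 1.15 and by 0.74, with controls that differed by 0.38 and guide libraries by 0.78 (both called).

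Proteasome subunits rose in the USP37 experiment, at more members with sg9 than with sg3. Of 34 tested proteasome subunits, 29 rose and 1 fell with USP37 guides (median 0.48), against 22.4% and 21.9% of all tested genes. With HIF2a guides 2 rose and 2 fell (median -0.02), against 16.1% and 14.5%. The interaction was higher at 26 and lower at 1, against 19.6% and 19%. With USP37 guides alone 23 members rose, against 11.2% of all tested genes. With sg3, 15 members rose (median 0.31), and with sg9, 29 rose (median 0.57), against 16.8% and 24.6% of all tested genes. Between these guides, 20 members were higher and 3 lower with sg9, against 16.6% and 14.2% of all tested genes. PSMD2, a base subunit of the regulatory particle, had 12.97 to 13.24 (median 13.17) with USP37 guides, against 12.53 and 12.50, and 12.63 to 12.78 (median 12.68) with HIF2a guides, against 12.85, 13.02 and 12.96. PSMD2 rose by 0.62 ± 0.08 and fell by 0.26 ± 0.07, with controls that differed by -0.43 and guide libraries by 0.45 (both called). PSMA7, a subunit of the catalytic core, had 11.80 to 12.70 (median 12.11) with USP37 guides, against 11.48 and 11.52, and 11.02 to 11.74 (median 11.64) with HIF2a guides, against 11.81, 11.55 and 12.01. PSMA7 rose by 0.69 ± 0.14 and had a HIF2a effect of -0.28 ± 0.12 (not called), with controls that differed by -0.29 (not called). With sg3 alone the USP37 effect of PSMA7 was 0.37 and not called (limma adjusted p = 0.0715). The exception, PSME1, encodes a subunit of the interferon-inducible PA28 cap; it fell by 0.39 with USP37 guides and had a HIF2a effect of 0.21 (not called), with controls that differed by 0.85 and guide libraries by 0.25 (both called). The fall of PSME1 was not called without the USP37 control library numbered 3 (-0.34, limma adjusted p = 0.101). With chromosome medians subtracted, the HIF2a effect of PSMD2 was -0.02 (limma adjusted p = 0.874). Without the USP37 control library numbered 2, 14 interactions of the list were called higher.

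Cytosolic ribosomal proteins and respiratory chain subunits rose with USP37 guides as well, but that rise was carried by sg9. Of 53 ribosomal protein genes 38 rose with the mean of the USP37 guides, against 22.4% of all tested genes. With sg3 2 rose and with sg9 48 rose, against 16.8% and 24.6% of all tested genes. Compared with sg3, 49 were higher with sg9, against 16.6% of all tested genes. With HIF2a guides 1 rose and 8 fell, against 16.1% and 14.5%. Over all tested genes the interaction with the mean of the guides was higher at 19.6%. The interaction was called higher at 33 with the mean of the guides, but at 8 and 2 where sg3 was paired with sg4 and sg6, and at 46 and 44 where sg9 was. RPL24, of the large subunit, had an effect of 0.26 with sg3 (not called) and one of 0.99 with sg9 (called), and fell by 0.36 with the HIF2a guides, with controls that differed by 0.12 (not called). That fall was not called without the first or the third HIF2a control (-0.31 in both fits, limma adjusted p = 0.0798 and 0.0649), and was -0.12 with chromosome medians subtracted (limma adjusted p = 0.465). Of 51 nuclear-encoded respiratory chain genes 32 rose and 1 fell with the mean of the USP37 guides, against 22.4% and 21.9% of all tested genes. With sg3 5 were higher and with sg9 42 were higher. With HIF2a guides 5 rose and 2 fell, against 16.1% and 14.5%. The interaction was called higher at 21, but at 1 and 5 where sg3 was paired with sg4 and sg6, and at 29 and 32 where sg9 was. NDUFB3, of complex I, had USP37 effects of 0.25 with sg3 (not called) and 1.52 with sg9 (called) and a HIF2a effect of -0.01 (not called), with controls that differed by -0.35 (not called). Without the USP37 control library numbered 2 the interaction was called higher at 18 ribosomal and 12 respiratory genes. Without the 3 HIF2a libraries that stand apart, 20 ribosomal genes fell with HIF2a guides and the interaction was called higher at 44 ribosomal and 32 respiratory genes. Ribosomal protein genes have many processed pseudogenes, so their reads may be shared.

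**Figure D3:**
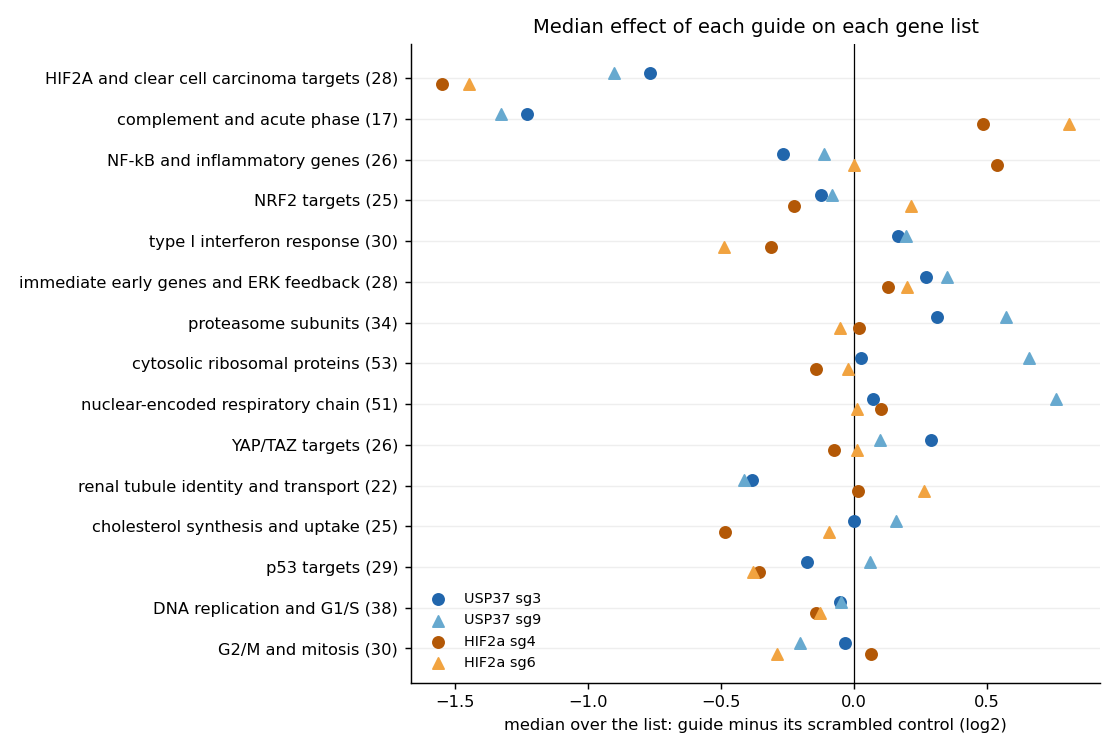
Median over each gene list (number of tested members in brackets) of the effect of each guide against its own scrambled control, in log2 units; blue symbols are USP37 sg3 and sg9 and orange symbols are HIF2a sg4 and sg6. Proteasome medians are 0.31 and 0.57 with the USP37 guides, ribosomal medians are 0.03 and 0.66, and complement medians are -1.23 and -1.33 with USP37 guides against 0.48 and 0.81 with HIF2a guides.

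Single genes that rose with USP37 guides alone included a heat shock gene and YAP/TAZ targets. HSPA1B, an inducible HSP70 chaperone, had 10.28 to 10.65 (median 10.49) with USP37 guides, against 8.96 and 8.66, and 8.64 to 9.04 (median 8.83) with HIF2a guides, against 8.59, 8.81 and 8.90. Only the USP37 guide libraries stood apart. HSPA1B rose by 1.67 ± 0.12 and had a HIF2a effect of 0.07 ± 0.11 (not called), with an interaction of 1.59 ± 0.16 (limma adjusted p = 1.66e-07) and controls that differed by 0.05 (not called). The nearly identical HSPA1A rose by 0.80 with USP37 guides and fell by 0.62 with HIF2a guides, with an interaction of 1.43 (control difference not given). Reads may be shared between HSPA1A and HSPA1B, so the split between them is uncertain. AOX1, an aldehyde oxidase, rose by 1.80 and had a HIF2a effect of 0.08 (not called), with controls that differed by 0.20 (not called). NTM, a neural adhesion molecule, rose by 1.39 and had a HIF2a effect of 0.18 (not called), with controls that differed by -0.13 (not called).

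YAP and TAZ are coactivators that bind TEAD factors and drive genes of growth and matrix contact. Of 26 tested targets, 13 rose and 2 fell with USP37 guides and 3 rose and 5 fell with HIF2a guides, with 7 higher with USP37 guides alone and the interaction higher at 12 and lower at 2. Of all tested genes 11.2% rose with USP37 guides alone, and the interaction was higher at 19.6% and lower at 19%. With USP37 guides 22.4% of them rose and 21.9% fell, and with HIF2a guides 16.1% rose and 14.5% fell. The USP37 controls were higher than the HIF2a controls at 2 members and lower at 10 (median -0.24), against 20.1% and 20.4%. The guide libraries were higher at 11 and lower at 8 (median -0.01), against 36.6% and 35.5%. Compared between the USP37 guides, 13 members were lower and 0 higher with sg9 than with sg3, against 14.2% and 16.6% of all tested genes. CTGF, a matricellular growth factor and standard YAP target, had 8.62 to 9.93 (median 9.54) with USP37 guides, against 7.46 and 7.78 in USP37 controls. It had 8.32 to 9.32 (median 8.72) with HIF2a guides, against 8.54, 8.78 and 8.91 in HIF2a controls. CTGF rose by 1.80 ± 0.15 and had a HIF2a effect of 0.02 ± 0.13 (not called), and its controls differed by -1.12 ± 0.17 and its guide libraries by 0.66 (both called). CYR61, a related matricellular protein, and FJX1, a secreted regulator of planar polarity, rose by 1.70 and 1.67 and had HIF2a effects of 0.25 and -0.02 (not called). Their controls differed by -0.94 and -1.25 and their guide libraries by 0.51 and 0.44 (all called). F3, the coagulation initiator tissue factor, had a USP37 effect of 0.12 (not called) and fell by 1.62 with HIF2a guides, with controls that differed by -0.27 (not called). ANKRD1, a muscle ankyrin repeat protein and YAP target, rose in both, by 1.00 and 0.60, with controls that differed by 0.02 (not called). With sg4 alone the HIF2a effect of ANKRD1 was not called (0.35, limma adjusted p = 0.137).

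The promoter of CTGF is shown as that of the list member with the largest interaction. It is the 250 bases before the start site from RefSeq, where the gene is named CCN2 (GRCh38.p14, chr6:131951373-131951622, minus strand, 5′ to 3′), with the TEAD element letters GGAATG on either strand in capitals. There were 3 matches, whose first bases lie 169, 104 and 95 bases before the start site.
CTGF: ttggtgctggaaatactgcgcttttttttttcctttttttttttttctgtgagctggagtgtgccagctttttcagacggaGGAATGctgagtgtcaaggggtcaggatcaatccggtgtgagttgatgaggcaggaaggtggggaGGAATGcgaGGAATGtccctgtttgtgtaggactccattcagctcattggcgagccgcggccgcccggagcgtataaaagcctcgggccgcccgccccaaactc
At least 1 match lies in the same window of 14.3% of all 27305 genes and of 9 of the 19 YAP/TAZ targets that matched the table.

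Genes that fell with USP37 guides alone included IL1R1, DHRS3 and KIF12. IL1R1, the signalling receptor of interleukin-1, had 9.41 to 10.00 (median 9.56) with USP37 guides, against 11.74 and 11.68, and 11.51 to 12.34 (median 11.73) with HIF2a guides, against 11.89, 11.74 and 11.66. The HIF2a guide libraries spanned their controls. IL1R1 fell by 2.05 ± 0.14 and had a HIF2a effect of 0.06 ± 0.12 (not called), with an interaction of -2.11 ± 0.18 (limma adjusted p = 1.7e-08) and controls that differed by -0.05 (not called). DHRS3, a retinaldehyde reductase, had 6.65 to 8.59 (median 7.68) with USP37 guides, against 10.00 and 10.07, and 9.50 to 10.01 (median 9.64) with HIF2a guides, against 9.59, 9.59 and 9.64. DHRS3 fell by 2.39 and had a HIF2a effect of 0.08 (not called), with controls that differed by 0.43 (not called). KIF12, a kinesin of renal epithelium, fell by 1.51 and had a HIF2a effect of -0.08 (not called), with controls that differed by -0.16 (not called).

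Of 22 renal tubule genes 12 fell and 2 rose with USP37 guides (median -0.35), against 21.9% and 22.4% of all tested genes. With HIF2a guides 6 fell and 8 rose (median 0.10), against 14.5% and 16.1%. The interaction was lower at 12 and higher at 2, against 19% and 19.6%. With USP37 guides alone 3 of the 22 fell, against 7.85% of all tested genes. The USP37 controls were higher than the HIF2a controls at 10 members and lower at 2, against 20.1% and 20.4%. The guide libraries were higher at 6 and lower at 13, against 36.6% and 35.5%. FXYD2, the gamma subunit of the sodium pump, had 7.05 to 8.67 (median 8.19) with USP37 guides, against 10.73 and 10.45, and 8.28 to 9.65 (median 8.91) with HIF2a guides, against 9.26, 8.44 and 9.05. FXYD2 fell by 2.53 ± 0.21 and had a HIF2a effect of 0.04 ± 0.18 (not called), and its controls differed by 1.67 ± 0.24 and its guide libraries by -0.90 (both called). A neighbouring readthrough gene may share its reads. SLC4A4, the basolateral bicarbonate cotransporter, fell by 1.66 and had a HIF2a effect of 0.22 (not called), with controls that differed by 0.92 and guide libraries by -0.97 (both called). PDZK1, an apical scaffold of transporters, fell by 2.54 and by 0.62, with controls that differed by 0.28 (not called). GGT1, the gamma-glutamyl transferase of the brush border, fell by 1.38 and rose by 0.38, with controls that differed by 0.85 and guide libraries by -0.92 (both called).

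The partners and regulators of HIF2a responded unequally. ARNT, its obligate dimer partner, had 8.67 to 8.96 (median 8.86) with USP37 guides, against 9.93 and 9.70, and 9.18 to 9.50 (median 9.43) with HIF2a guides, against 9.52, 9.49 and 9.44. ARNT fell by 0.98 ± 0.10 and had a HIF2a effect of -0.08 ± 0.09 (not called), with controls that differed by 0.33 and guide libraries by -0.56 (both called). HIF1A, the paralogous subunit, of which this line is known to make no full-length protein, had 11.42 to 11.67 (median 11.61) with USP37 guides, against 11.62 and 11.80. It had 11.37 to 12.08 (median 11.89) with HIF2a guides, against 10.99, 10.66 and 11.05. HIF1A had a USP37 effect of -0.13 (not called) and rose by 0.90 ± 0.09 with HIF2a guides, with controls that differed by 0.81 and guide libraries by -0.22 (both called). VHL had a USP37 effect of -0.26 (limma adjusted p = 0.0383) and a HIF2a effect of 0.09 (not called). Its interaction of -0.35 (limma adjusted p = 0.0406) was not called with the replicate number in the fit (limma adjusted p = 0.0823), and its controls differed by -0.63 and its guide libraries by -0.97 (both called). Its USP37 effect was not called when any of 4 single libraries was left out (-0.14 to -0.25, limma adjusted p = 0.0559 to 0.422). The VHL interaction was also lost when any of 10 single libraries was left out, with limma adjusted p from 0.054 to 0.272.

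In the HIF2a experiment alone, the chemokine CXCL12 and its scavenging receptor ACKR3 moved in opposite directions. CXCL12 had 5.53 to 6.31 (median 6.04) with USP37 guides, against 6.26 and 6.09 in the controls. It had 10.68 to 11.91 (median 11.34) with HIF2a guides, against 7.01, 6.95 and 7.39. CXCL12 had a USP37 effect of -0.21 ± 0.18 (not called) and rose by 4.23 ± 0.15 with HIF2a guides, with an interaction of -4.44 ± 0.23 (limma adjusted p = 1.12e-11). Its controls differed by -0.94 and its guide libraries by -5.38 (both called). The values in the USP37 experiment lie near the floor of the scale, where differences are understated. ACKR3 had 7.34 to 7.85 (median 7.46) with USP37 guides, against 7.36 and 7.16, and 5.15 to 5.95 (median 5.60) with HIF2a guides, against 8.63, 8.44 and 8.96. ACKR3 had a USP37 effect of 0.28 ± 0.15 (not called) and fell by 3.12 ± 0.13, with controls that differed by -1.42 and guide libraries by 1.99 (both called).

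Genes of this class with like controls were led by MYEOV. MYEOV, a gene amplified with CCND1 in some cancers, had 8.75 to 9.27 (median 9.08) with USP37 guides, against 8.997 and 9.16, and 5.08 to 6.07 (median 5.65) with HIF2a guides, against 9.14, 8.97 and 8.92. Only the HIF2a guide libraries stood apart. MYEOV had a USP37 effect of -0.05 ± 0.14 (not called) and fell by 3.38 ± 0.12, with an interaction of 3.33 ± 0.19 (limma adjusted p = 3.6e-11) and controls that differed by 0.07 (not called). MGMT, which repairs alkylated guanine, had a USP37 effect of 0.16 (not called) and fell by 2.00, with controls that differed by -0.16 (not called). SLC7A5, the large neutral amino acid transporter LAT1 and a known HIF2a target, had 11.96 to 13.18 (median 12.67) with USP37 guides, against 12.81 and 12.55, and 10.66 to 11.79 (median 10.87) with HIF2a guides, against 12.93, 13.03 and 12.89. SLC7A5 had a USP37 effect of -0.05 (not called) and fell by 1.93, with controls that differed by -0.27 (not called). BCO2, a carotenoid-cleaving enzyme, and TRHDE, a peptidase of thyrotropin-releasing hormone, rose by 1.79 and 1.55 with HIF2a guides. Their USP37 effects of -0.21 and -0.33 and their control differences of -0.25 and -0.31 were not called. Their values in USP37 guide libraries, 5.84 to 6.50 for BCO2 and 5.47 to 6.16 for TRHDE, lie near the floor of 5.14. The genes passed the filter through the HIF2a guide libraries, and a fall with USP37 guides could hardly be seen there.

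Of 29 p53 targets 8 fell and 6 rose with USP37 guides (median -0.06), near the 21.9% and 22.4% of all tested genes. With HIF2a guides 16 fell and 3 rose (median -0.41), against 14.5% and 16.1%. With HIF2a guides alone 6 fell, against 3.75% of all tested genes. The USP37 controls were higher than the HIF2a controls at 4 members and lower at 10, against 20.1% and 20.4%. The guide libraries were higher at 14 and lower at 5, against 36.6% and 35.5%. CDKN1A, the cyclin-dependent kinase inhibitor p21, had 10.41 to 11.06 (median 10.72) with USP37 guides, against 10.61 and 10.61, and 9.03 to 9.26 (median 9.16) with HIF2a guides, against 10.94, 10.94 and 10.93. CDKN1A had a USP37 effect of 0.10 (not called) and fell by 1.79 ± 0.08, with controls that differed by -0.33 and guide libraries by 1.56 (both called). MDM2, the ubiquitin ligase of p53, had a USP37 effect of 0.08 (not called) and fell by 0.99, with controls that differed by -0.12 (not called). EDA2R, an ectodysplasin receptor, had a USP37 effect of -0.23 (not called) and fell by 2.24, with controls that differed by -0.50 and guide libraries by 1.52 (both called). GDF15, a stress-induced cytokine, went against the list: it fell by 0.68 with USP37 guides and rose by 1.77 with HIF2a guides, with controls that differed by 2.06 and guide libraries by -0.39 (both called).

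Of 25 genes of cholesterol synthesis and uptake 6 fell and 4 rose with USP37 guides (median 0.13), against 21.9% and 22.4% of all tested genes. With HIF2a guides 12 fell and 1 rose (median -0.23), against 14.5% and 16.1%. With HIF2a guides alone 9 fell, against 3.75% of all tested genes. Between the USP37 guides, 12 members were higher and 3 lower with sg9 than with sg3, against 16.6% and 14.2% of all tested genes. Between the HIF2a guides, 15 members fell with sg4 and 6 with sg6, and 12 were higher with sg6 than with sg4, against 4.86% of all tested genes. MSMO1, a sterol demethylating oxidase, had 10.97 to 11.62 (median 11.27) with USP37 guides, against 11.21 and 11.26, and 9.77 to 10.28 (median 9.82) with HIF2a guides, against 11.49, 11.18 and 11.41. MSMO1 had a USP37 effect of 0.04 (not called) and fell by 1.42 ± 0.10, with controls that differed by -0.12 (not called). INSIG1, which retains the SREBP activator in the endoplasmic reticulum, fell in both, by 0.33 and 1.30, with controls that differed by 0.16 (not called), and its USP37 effect was not called without either USP37 control (-0.34 and -0.31, limma adjusted p = 0.0621 and 0.083).

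**Figure D4:**
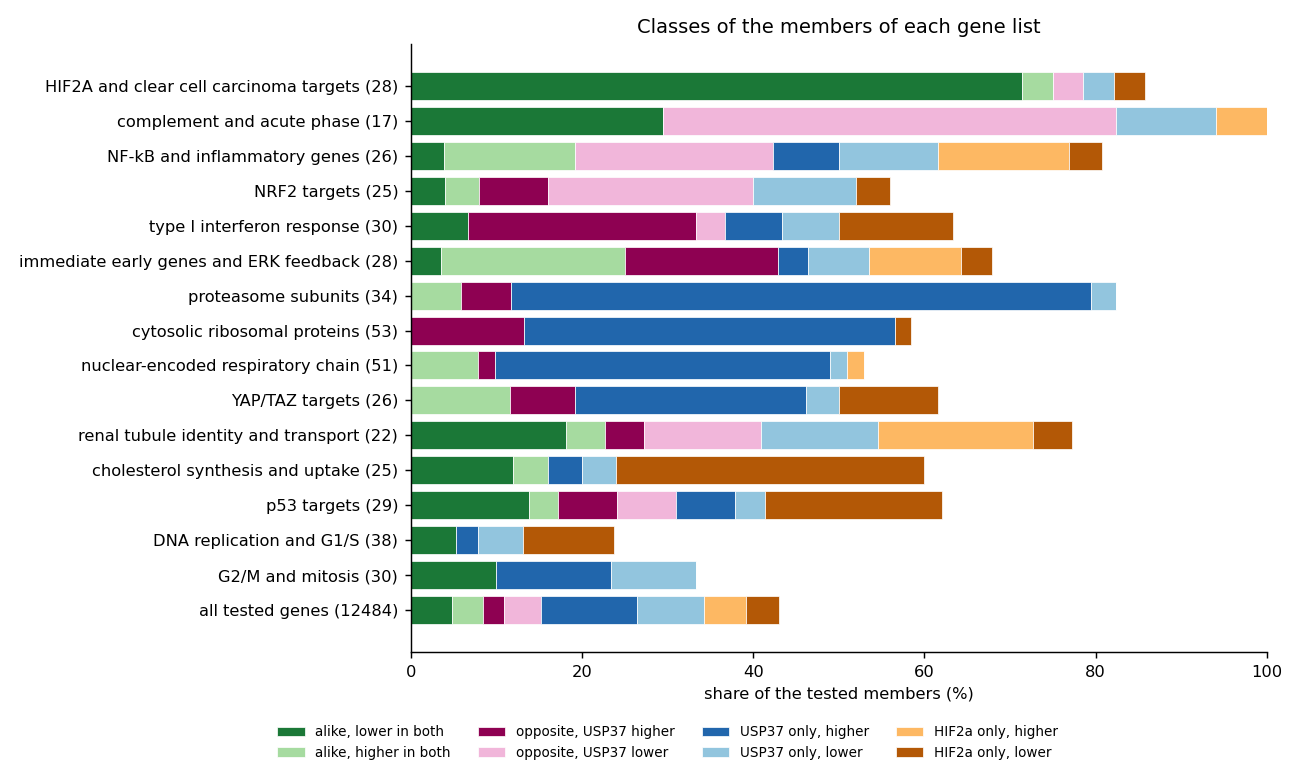
Share of the tested members of each gene list (number in brackets, x axis in percent) in each class, with the share over all tested genes in the bottom row; the blank remainder of a bar holds genes in no class. Members that fell in both make up 20 of 28 HIF2A targets, 9 of 17 complement genes are opposite with USP37 lower, and 23 of 34 proteasome subunits rose with USP37 guides alone.

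Proliferation was covered by 2 lists, whose counts are read against the shares of all tested genes. Of all tested genes 21.9% fell and 22.4% rose with USP37 guides, and 14.5% fell and 16.1% rose with HIF2a guides. The interaction was higher at 19.6% and lower at 19% of all tested genes. Of 38 genes of DNA replication and G1/S, 10 fell and 2 rose with USP37 guides and 8 fell and 0 rose with HIF2a guides, and the interaction was higher at 5 and lower at 2. Without the HIF2a control library numbered 3 it was higher at 1. RRM2, a ribonucleotide reductase subunit, had a USP37 effect of 0.05 (not called) and fell by 0.68 with HIF2a guides, with controls that differed by 0.16 (not called). CCNE1, cyclin E1, rose by 0.67 with USP37 guides and had a HIF2a effect of 0.14 (not called), with controls that differed by -0.08 (not called). Of 30 genes of G2/M and mitosis, 9 fell and 4 rose with USP37 guides and 4 fell and 0 rose with HIF2a guides, and the interaction was higher at 4 and lower at 4. TOP2A, the mitotic topoisomerase, fell by 0.79 with USP37 guides and had a HIF2a effect of -0.06 (not called), with controls that differed by 0.26 and guide libraries by -0.47 (both called). The HIF2a guides were not alike on this list, with 14 members lower with sg6 and 0 with sg4, and neither were the USP37 guides, with 14 lower with sg9 and 3 with sg3.

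Glycolytic enzymes, often regarded as HIF1A targets, moved in both directions. Of 24 tested, 5 rose and 9 fell with USP37 guides, 9 rose and 6 fell with HIF2a guides, and the interaction was lower at 5 and higher at 0. Of all tested genes 22.4% rose and 21.9% fell with USP37 guides, and 16.1% rose and 14.5% fell with HIF2a guides. The interaction was lower at 19% and higher at 19.6% of all tested genes. PFKFB3, which makes the activator of phosphofructokinase, fell by 0.48 with USP37 guides and rose by 1.49 with HIF2a guides, with controls that differed by 0.89 and guide libraries by -1.09 (both called). ENO2, the neuronal enolase, fell by 1.00 with USP37 guides and had a HIF2a effect of -0.19 (not called), with controls that differed by 0.43 and guide libraries by -0.38 (both called). GBE1, the glycogen branching enzyme, and PFKP, the platelet phosphofructokinase, fell in both, by 0.85 and 0.59 with USP37 guides and by 0.68 and 0.46 with HIF2a guides, with controls that differed by -0.02 and -0.11 (not called).

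**Figure D5:**
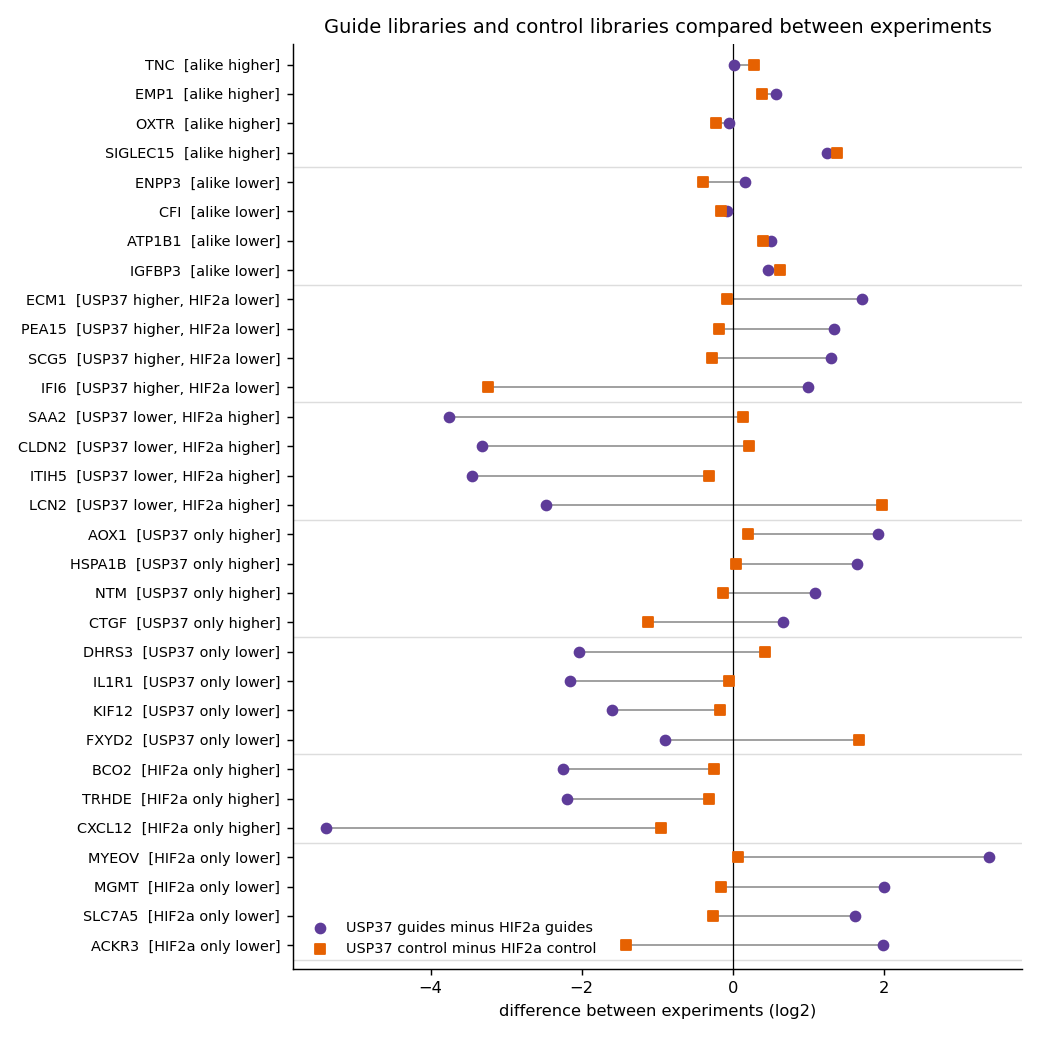
Difference between the experiments in the guide libraries (circles, USP37 guides minus HIF2a guides) and in the control libraries (squares, USP37 control minus HIF2a control), in log2 units, for 31 genes named by class; the line between them spans the interaction. The squares of SAA2, CLDN2, IL1R1 and MYEOV lie near 0, and those of IFI6 at -3.24, LCN2 at 1.98 and FXYD2 at 1.67 lie far from it.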

How the data were processed

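Poly(A) RNA-seq libraries of 786-O cells were analysed from the single table the authors deposited: variance-stabilised, batch-corrected values on a log2 scale for 27315 genes. Per the submitters' processing notes the tools were Salmon, STAR 2.5.2b, DESeq2 and cutadapt and the build hg19, and neither their roles, the annotation nor the batch variable is given in the sources used here. For every gene the means over libraries with the same replicate number were equal to within 6.39e-14, so a replicate term had been removed; the USP37 control has no library 1, so that removal was unbalanced. Counts cannot be recovered, so the depth is unknown, no counting interval is given, and 8023 genes held a single value. Tested were the 12484 genes whose mean lay 1 log2 unit or more over the floor, the 1st percentile (5.14). The 6 group means were fitted with limma 3.58.1 in R 4.3.3 (trended empirical Bayes, 11 residual degrees of freedom), with Benjamini-Hochberg adjustment within each contrast; the script was tested on simulated data. The 11 degrees ignore the removed term, so p-values tend to be too small; a fit with the replicate number as a block has 9. A class needs a called interaction for "opposite" and for effects in 1 experiment alone. Named genes are, in each class and direction and among genes whose class and both guides held, the 3 largest with controls that did not differ and the largest with controls that did, 13 key genes of the pathway, and the members of each list with the largest or most alike effects; further list members were chosen after their values were seen. Members and lists were chosen with earlier results of these data known. Promoters are RefSeq windows on GRCh38.p14, not the build of the files, and are used for their letters only. Some genes that the rule names or that were in the lists are not reported here by name.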

Additional observations from a re-analysis of the deposited data

Results flagged for a closer look

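DHRS3, which fell with USP37 guides and not detectably with HIF2a guides, fell further with one USP37 guide than with the other. Its values were 7.52, 7.26 and 6.65 with sg3 and 8.59, 7.84 and 8.04 with sg9, against 10.00 and 10.07 in the USP37 controls. The difference of sg9 minus sg3 was 1.01 ± 0.18 (SE; limma adjusted p = 0.000304), so its size with USP37 guides depends on the guide while every guide library lay below both controls.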

How the results depend on the processing

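Under 31 alternatives 351 recomputed counts stayed within 1.5 times of the value reported and 21 did not. Of 293 called effects and interactions of 119 genes named in the text, 246 stayed called under every alternative. A call was lost for 37 with 1 guide of each target, for 27 without 1 library and for 26 in another alternative. The sign changed for 3: the HIF2a effect of CFB with sg4 (0.058), that of CXCL2 with sg6 (-0.0781) and the CFB interaction with sg9 and sg6 (0.105). With a stricter filter 406 genes rose with HIF2a guides alone. With sg3 and sg4, 897 rose with USP37 guides alone. With sg3 and sg6, 62 rose and 93 fell in both with a difference in size. With libraries 2 and 3 only, an alternative chosen after seeing the data, 172 rose alike, 42 and 102 rose and fell in both with a difference in size, 134 rose with USP37 and fell with HIF2a guides, 395 rose and 255 fell with HIF2a guides alone, and the interaction was higher at 20 ribosomal and 13 respiratory genes. Leaving out single libraries gave 1778 to 2691 interactions higher and 1852 to 2608 lower, 223 to 392 and 322 to 514 genes that rose or fell alike, and 41 to 106 and 93 to 176 with a difference in size. It gave 190 to 425 and 394 to 599 opposite genes with USP37 higher or lower, 901 to 1509 and 655 to 1113 that rose or fell with USP37 guides alone, and 472 to 633 and 329 to 481 with HIF2a guides alone. The cause of these shifts was not tested. Same-numbered libraries deviated from their group means with correlations of -0.547 to 0.222 (median -0.151). Since the deposited values had a replicate term removed, these correlations cannot show whether the numbers mark a shared batch. With the replicate number as a block 2154 interactions were higher and 2128 lower. With unknown depth, how far reads limit low genes cannot be given.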

Other observations

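Further gene groups showed mixed responses, and their counts are read against the shares of all tested genes. Of all tested genes 21.9% fell and 22.4% rose with USP37 guides, and 14.5% fell and 16.1% rose with HIF2a guides. The interaction was lower at 19% and higher at 19.6%. The USP37 controls were higher than the HIF2a controls at 20.1% and lower at 20.4%. Of 34 lysosome and autophagy genes 11 fell and 2 rose with USP37 guides and 5 fell and 6 rose with HIF2a guides, with the interaction lower at 13 and higher at 1, and the USP37 controls were higher than the HIF2a controls at 16 of them and lower at 4. Without the USP37 control library numbered 2 the interaction was lower at 8. CTSD, the aspartic protease cathepsin D, fell by 0.75 and rose by 0.78, with controls that differed by 0.95 and guide libraries by -0.59 (both called). Of 24 genes of amino acid supply 10 rose and 2 fell with USP37 guides and 1 rose and 3 fell with HIF2a guides. ASNS, the asparagine synthetase, and PSAT1, an enzyme of serine synthesis, rose by 0.74 and 0.80 with USP37 guides and had HIF2a effects of -0.19 and -0.02 (not called), with controls that differed by -0.00 and 0.05 (not called). Of 36 integrin and focal adhesion genes the interaction was higher at 11 and lower at 12. ITGB8, an integrin that activates TGF-beta, had a USP37 effect of 0.28 (not called) and fell by 1.83 with HIF2a guides, with controls that differed by -0.81 and guide libraries by 1.31 (both called). ITGB4, the hemidesmosome integrin, fell by 0.53 and rose by 1.21, with controls that differed by 0.26 (not called), and its fall was not called without either USP37 control (-0.57 and -0.48, limma adjusted p = 0.0535 and 0.101). Of 27 genes of the unfolded protein and integrated stress responses the interaction was lower at 9 and higher at 1. The endoplasmic reticulum chaperone HSPA5 rose in both, by 0.42 and 0.32, with controls that differed by -0.07 (not called). With sg6 alone the HIF2a effect of HSPA5 was not called (0.16, limma adjusted p = 0.214).

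The interaction was not centred on 0 on every chromosome. Its median was 0.23 over 693 tested genes of chromosome 3, where the median USP37 effect was 0.02 and the median HIF2a effect -0.22, against 0.02 over all tested genes. It was 0.14 over 644 genes of chromosome 12 and -0.14 over 405 genes of chromosome 14.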
